A study of Homo sapiens with 6 samples.

Results

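Claudins and the proteins that assemble tight junctions and apical polarity were followed in HCT116 cells, an established line from a human colorectal carcinoma. The set holds each measured gene whose symbol is CLDN and a number, 23 genes, together with 27 named genes of tight junctions, cell polarity and the epithelial state. Of these 50 genes, 47 had a usable probe set among the 18417 genes measured. The only named probe set of OCLN, which encodes occludin, carries a further gene's symbol, and no probe set named for F11R or ESRP1 was found in the annotation used here, so these 3 genes are not analysed here. RefSeq holds 24 protein-coding claudin genes, of which CLDN25 has no named probe set and is not among the 23. Each gene is represented by 1 probe set, the one with the highest mean over all arrays, and no filter on low values was applied.

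Expression was measured on Affymetrix whole-transcript Gene ST arrays, 3 of parental HCT116 cells and 3 of a mutant line derived from them and labelled as having altered DNA methylation. Both lines carry the HCT116 background and were grown in the same standard serum-containing medium. The labels name neither the mutated gene nor any clones, so what the mutation did and what else sets the lines apart cannot be told apart. Values are log2 expression as deposited, so a difference of 1 is a factor of 2. Array medians lay between 6.88 and 6.93, and arrays correlated at 0.995 to 0.996 within groups and at 0.988 to 0.989 between groups.

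Tight junctions seal the space between neighbouring epithelial cells near their apical border. Claudins span the membrane and form the sealing strands and their ion pores, occludin and the other MARVEL proteins join these strands, and the scaffolds ZO-1 (TJP1), ZO-3 (TJP3) and cingulin (CGN) tie them to the actin cytoskeleton. The PAR complex (PARD3, PARD6 and an atypical protein kinase C) and the Crumbs complex mark the apical side, while the Scribble, DLG and LLGL proteins mark the basolateral side. In gut epithelium these proteins hold the barrier between the lumen and the tissue.

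In the mutant line 11 of the 47 genes fell and 3 rose at an adjusted p under 0.05 (limma, adjusted over all probe sets), and 33 did not pass, so that 29.8% were called, where 25.9% of all genes were. The 11 decreases were of PRKCI, CLDN4, ST14, CLDN7, LLGL2, PARD6B, CGNL1, CGN, CLDN3, MARVELD3 and TJP1, and the 3 increases were of JAM2, CLDN6 and MARVELD2. The share that fell was 23.4%, where 11.3% of all genes fell, and the share that rose was 6.38%, where 14.6% of all genes rose. At 1.5-fold or more 5 fell (10.6%, against 3.88% of all genes) and 2 rose (4.26%, against 3.34%). Among the 5, CLDN7 and LLGL2 stood at the cut, each with a difference of -0.59. With 1 array left out these differences went as far as -0.56 and -0.53, below the cut in size. Probe sets with a mean of at least 7 in either line, close to the array medians, hold 31 of the 47 genes. Of these 31, 10 fell (32.3%, against 16% of all genes at that level) and 1 rose (3.23%, against 21.1%). A gene at that level in only 1 line enters through the line where it is higher, among members and all genes alike. CGN, with means of 7.26 in parental and 6.81 in mutant cells, entered the 10 that fell in this way. The median difference, mutant minus parental, was -0.08 over the 47 genes and 0.00 over all genes. The 3 parental and 3 mutant values did not overlap for 20 of the 47 genes (42.6%), where 45.8% of all genes showed no overlap, so in this respect the set stood close to the background. By direction, 15 of the 47 were lower without overlap (31.9%, against 20.5% of all genes) and 5 were higher (10.6%, against 25.3%). The number that fell was 7 without mutant replicate 1 and 7 without mutant replicate 2.

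**Figure D1:**
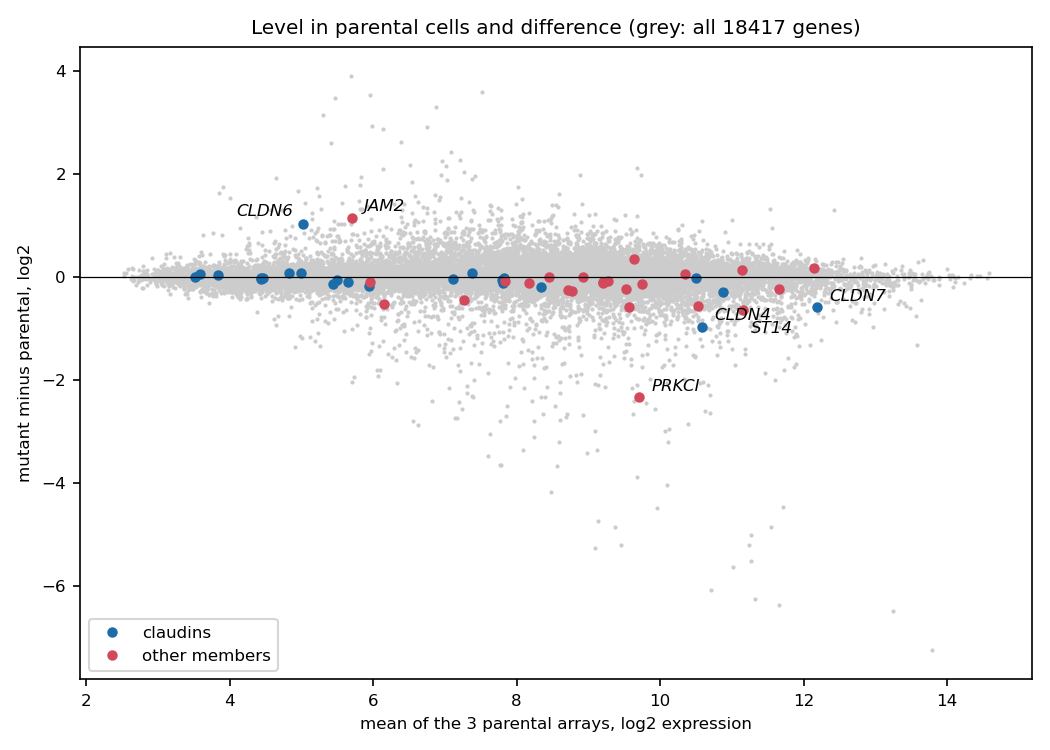
Mutant minus parental difference (log2, vertical axis) against the mean of the 3 parental arrays (log2 expression, horizontal axis), with 1 point per gene: grey for all 18417 genes, blue for the 23 claudins and red for the other members. PRKCI, at -2.33, lies farthest below 0 among the members, and JAM2 (1.15) and CLDN6 (1.02), both dim in parental cells, lie above it.

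Most claudin genes gave little signal, and the decreases fell among the brightest probe sets. Claudin probe sets reached a group mean of at least 9 for 4 genes, CLDN3, CLDN4, CLDN7 and CLDN12, lay between 7 and 9 for 6 and stayed under 7 in both lines for 13. Brightness differs between probe sets for technical reasons, so these levels do not rank the mRNAs. Of the 4 bright claudins 3 fell, of the 6 intermediate ones 0 changed, and of the 13 dim ones 1 rose. Bright genes were called more often in general. Of the 10 claudins at 7 or more, 3 fell (30%, against 16% of all genes at that level) and 0 rose (against 21.1%). Shares of all genes at the finer levels are not given here. In total 3 of 23 claudins fell (13%, against 11.3% of all genes) and 1 rose (4.35%, against 14.6%), and before adjustment limma gave a p under 0.05 for 4 claudins as well.

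CLDN4 encodes a sealing claudin of gut and other simple epithelia (probe set 8133360). Its parental arrays read 10.62, 10.37 and 10.75 and its mutant arrays 9.84, 9.48 and 9.52. Every mutant array lay below every parental array, although the spread within each line was wide (SD 0.20 in both, n = 3). CLDN4 fell by 0.96 on the log2 scale (SE 0.14, 95% interval -1.29 to -0.63, adjusted p = 0.00502), which is 1.95-fold.

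CLDN7, a claudin found along the lateral membrane as well as in the strands, where it binds EPCAM, was measured by probe set 8012126. It read 12.13, 12.16 and 12.23 in parental and 11.61, 11.58 and 11.58 in mutant cells. The lines were well apart, with SDs of 0.05 and 0.02 (n = 3 each). CLDN7 fell by 0.59 (SE 0.05, 95% interval -0.71 to -0.47, limma adjusted p = 0.000731).

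CLDN3, another sealing claudin and the direct neighbour of CLDN4 on chromosome 7 with no protein-coding gene between them, showed a smaller difference (probe set 8140140). Parental arrays read 10.93, 10.79 and 10.88, and mutant arrays 10.62, 10.49 and 10.61, again without overlap. The decrease was 0.29, so that CLDN3 fell by 0.29 where CLDN4 fell by 0.96, and the 95% interval of CLDN3, -0.45 to -0.14, does not overlap that of CLDN4; the difference between the genes was not itself tested. The CLDN3 call (limma adjusted p = 0.0238) was lost when 1 of 5 arrays was left out, with adjusted p = 0.0721 without parental replicate 1, 0.074 without parental replicate 3, and 0.0517, 0.0799 and 0.0576 without mutant replicates 1, 2 and 3. The fourth bright claudin, CLDN12, differed by -0.01 (95% interval -0.18 to 0.16), from 10.50 ± 0.10 to 10.49 ± 0.07 (SD, n = 3 each).

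The one claudin that rose was CLDN6, which is known from embryonic and stem cell epithelia and is often absent from adult tissue (probe set 7998898). Its parental arrays read 5.37, 4.52 and 5.17 and its mutant arrays 5.86, 6.05 and 6.19. All 6 values lie below the array medians, the parental replicate 2 array being the lowest, and the lines do not overlap. The increase was 1.02 (SE 0.23, 95% interval 0.47 to 1.57, limma adjusted p = 0.0263). It was 0.76 without parental replicate 2 and still called (adjusted p = 0.0188), while the call was lost without parental replicate 3 (0.0579) and without mutant replicates 1 (0.0568), 2 (0.0801) or 3 (0.0865). CLDN9, its direct neighbour on chromosome 16, differed by -0.03 (adjusted p = 0.823).

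Among the 19 claudins that did not pass, differences ran from -0.19 to 0.07 and the 95% intervals reached no farther than -0.47 and 0.30. CLDN15, a cation-pore claudin of the intestine, stood nearest to the threshold, from 8.34 ± 0.13 to 8.15 ± 0.06 (SD, n = 3 each, limma adjusted p = 0.175). The pore-forming CLDN2 read 5.94 ± 0.12 and 5.76 ± 0.21, and CLDN1, a sealing claudin abundant in skin and present in gut, 4.99 ± 0.11 and 5.06 ± 0.07. CLDN5, the claudin of endothelium, gave 7.38 ± 0.07 and 7.45 ± 0.16, and CLDN18, the claudin of stomach and lung, 5.65 ± 0.11 and 5.55 ± 0.08. RMA, the method behind the deposited values, compresses differences of dim probe sets, so changes of the 13 claudins under 7 could be understated. CLDN22 and CLDN24 lie side by side on chromosome 4, and probes of close copies can take up each other's signal.

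**Figure D2:**
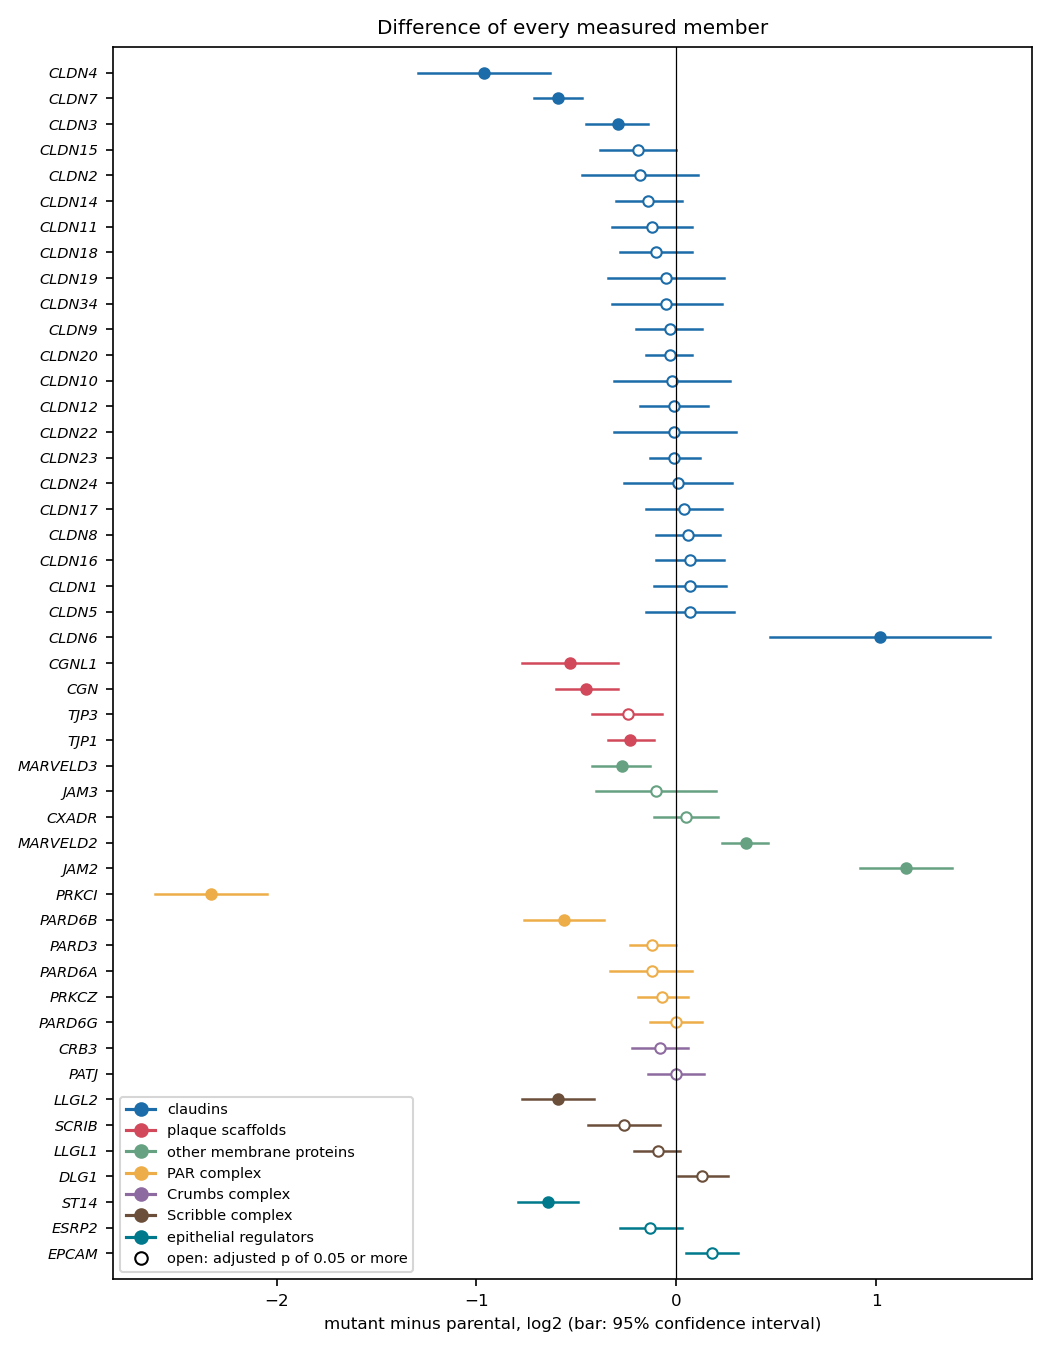
Mutant minus parental difference (log2, horizontal axis) of each of the 47 measured genes, grouped by role, with 95% confidence intervals as bars; filled points passed an adjusted p under 0.05. PRKCI stands at -2.33, CLDN4 at -0.96, and the only differences above 1 are those of CLDN6 and JAM2.

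Promoter letters are shown for the claudins that changed and for PRKCI, because the line is labelled for altered DNA methylation, which in human cells falls on the C of CpG pairs. The sequences are the 250 bases before the RefSeq gene start (GRCh38.p14), 5′ to 3′ along the gene's own strand, with each CpG in capitals.
CLDN3: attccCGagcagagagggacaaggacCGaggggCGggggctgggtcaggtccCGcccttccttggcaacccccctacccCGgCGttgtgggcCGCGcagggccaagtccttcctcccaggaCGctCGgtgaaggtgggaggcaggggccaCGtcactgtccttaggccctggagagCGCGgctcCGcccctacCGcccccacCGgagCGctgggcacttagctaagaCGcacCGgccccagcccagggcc
CLDN4: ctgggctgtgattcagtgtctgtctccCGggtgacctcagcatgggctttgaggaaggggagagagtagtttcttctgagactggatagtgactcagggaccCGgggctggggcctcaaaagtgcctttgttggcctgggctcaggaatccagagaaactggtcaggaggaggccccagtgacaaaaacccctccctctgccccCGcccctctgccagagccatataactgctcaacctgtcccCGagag
CLDN7: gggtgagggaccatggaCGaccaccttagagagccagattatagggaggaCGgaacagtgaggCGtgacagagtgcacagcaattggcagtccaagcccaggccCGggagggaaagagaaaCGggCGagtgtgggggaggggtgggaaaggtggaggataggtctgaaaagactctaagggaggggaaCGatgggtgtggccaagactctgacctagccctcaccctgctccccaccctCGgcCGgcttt
CLDN6: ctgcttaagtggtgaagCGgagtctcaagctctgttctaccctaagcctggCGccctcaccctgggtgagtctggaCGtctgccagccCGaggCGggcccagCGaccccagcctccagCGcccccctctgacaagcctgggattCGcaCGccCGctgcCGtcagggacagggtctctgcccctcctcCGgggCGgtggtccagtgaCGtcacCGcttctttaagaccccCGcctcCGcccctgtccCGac
PRKCI: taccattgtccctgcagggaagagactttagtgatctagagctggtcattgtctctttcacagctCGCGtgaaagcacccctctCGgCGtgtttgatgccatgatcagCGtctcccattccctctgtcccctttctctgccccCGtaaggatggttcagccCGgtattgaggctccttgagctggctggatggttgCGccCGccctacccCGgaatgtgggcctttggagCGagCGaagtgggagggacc
The CLDN3 window is chr7:73770271-73770520 on the minus strand and the CLDN4 window chr7:73830746-73830995 on the plus strand. CLDN7 lies at chr17:7263214-7263463 (minus), CLDN6 at chr16:3018184-3018433 (minus) and PRKCI at chr3:170222174-170222423 (plus). The neighbours CLDN3 and CLDN4 differ in these letters, with 19 CpG pairs before CLDN3 and 4 before CLDN4, while CLDN7 has 9, CLDN6 18 and PRKCI 12. Methylation of these positions was not analysed here.

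Of the 47 genes, 31 are in the RefSeq promoter table, whose windows run from 250 bases before to 50 after each start. The median number of CpG pairs per window was 24 in the 7 genes that fell and are listed, 23 in the 2 that rose, 12 in the 22 that did not pass and 23 over 14239 promoters of measured genes. The 18 listed claudins had a median of 8.5, from 0 (CLDN17) to 36 (CLDN11), so many of the claudin windows are poor in CpG. The letters CACCTG, an E-box of the kind bound by SNAI and ZEB repressors, were found on either strand in 8 of the 31 windows. This is 25.8%, against 20.6% of all 27305 promoters and 19.6% of those of measured genes. Among the listed claudins it was 16.7%. The 8 are CLDN3, CLDN6 and TJP1, which changed, and CLDN18, PARD6A, PATJ, DLG1 and CRB3, which did not pass. CRB3 holds 5 copies. In CLDN3 and CLDN6 the letters do not lie within the 250 bases printed above. The letters AACCGGTT, bound by grainyhead factors, were found in 0 of the 31 windows and in 0.117% of all promoters. These matches describe letters only.

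Beyond the claudins, the membrane proteins of the junction went both ways, with 1 lower and 2 higher among 5 measured, where 11.3% of all genes fell and 14.6% rose. JAM2, a junctional adhesion molecule of the immunoglobulin family best known from endothelium, read 5.72, 5.73 and 5.65 in parental cells (probe set 8068024). Its mutant values were 6.66, 6.88 and 7.01, all far above the parental ones. The signal was dim, with means of 5.70 in parental and 6.85 in mutant cells, both under 7. JAM2 rose by 1.15 (SE 0.09, 95% interval 0.92 to 1.38, limma adjusted p = 0.000663), or 2.22-fold, and held rank 97 among all 18417 genes ordered from the highest difference. Defining markers of endothelium, where JAM2 is common, stayed low in both lines, with 0 of 6 at a group mean of 7. Of these 6, 0 changed, where 25.9% of all genes did, though differences of dim probe sets are compressed. The list's mean was 5.24 to 5.31 on parental and 5.23 to 5.26 on mutant arrays, and PECAM1 read 5.00 and 4.93. JAM3, its partner in adhesion between cells, read 5.96 ± 0.21 and 5.86 ± 0.12 (SD, n = 3 each, adjusted p = 0.669).

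The MARVEL family split. MARVELD2 encodes tricellulin, which seals the points where 3 cells meet. It read 9.63, 9.63 and 9.62 in parental and 10.03, 9.95 and 9.94 in mutant cells (probe set 8105899), with no overlap. MARVELD2 rose by 0.35 (SE 0.05, limma adjusted p = 0.00509), and a second probe set of the gene holds identical values. MARVELD3, a further MARVEL protein of the strands, read 8.77, 8.84 and 8.71 against 8.49, 8.45 and 8.56. MARVELD3 fell by 0.27 (SE 0.06, adjusted p = 0.0219), a call lost without parental replicates 1 (adjusted p = 0.0616) or 2 (0.0789) and without mutant replicates 1 (0.0711) or 2 (0.0821). CXADR, the coxsackie and adenovirus receptor of the junction, differed by 0.05 (95% interval -0.11 to 0.21).

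The cytoplasmic scaffolds all had negative differences, and 3 of 4 fell, against 11.3% of all genes. TJP1, the central ZO-1 scaffold, read 11.63, 11.64 and 11.70 in parental and 11.44, 11.43 and 11.42 in mutant cells. Its values were tight and did not overlap, so a small decrease of 0.23 was called (SE 0.05, limma adjusted p = 0.0203). The call was kept without parental replicate 1 and lost without any other single array, at adjusted p = 0.0679 and 0.065 without parental replicates 2 and 3 and 0.0584, 0.0743 and 0.0629 without mutant replicates 1, 2 and 3. CGN, which encodes cingulin, read 7.29, 7.16 and 7.32 against 6.79, 6.87 and 6.76 and fell by 0.45 (SE 0.06, adjusted p = 0.00533). Its paralog CGNL1, or paracingulin, which also sits at adherens junctions, read 6.09, 6.06 and 6.31 against 5.56, 5.54 and 5.78. CGNL1 fell by 0.53 (SE 0.10, adjusted p = 0.0147; 0.0551 and 0.0557 without mutant replicates 1 and 2). TJP3, the ZO-3 scaffold, changed from 9.52 ± 0.11 to 9.27 ± 0.05 (SD, n = 3 each) without overlap and missed the threshold (adjusted p = 0.0701).

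The largest change of the set was in the PAR complex. PRKCI encodes the atypical protein kinase C iota, the kinase that excludes basolateral proteins from the apical side. Parental arrays read 9.71, 9.66 and 9.75 and mutant arrays 7.35, 7.62 and 7.17 (probe set 8083854). The lowest parental value stands more than 2 units above the highest mutant value. PRKCI fell by 2.33 (SE 0.12, 95% interval -2.61 to -2.05, limma adjusted p = 0.000128), or 5.03-fold, rank 60 among all 18417 genes ordered from the lowest difference. The other atypical kinase, PRKCZ or kinase C zeta, read 9.27 ± 0.02 and 9.21 ± 0.05 (SD, n = 3 each), a difference of -0.07 with a 95% interval of -0.19 to 0.06.

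PARD6B, 1 of 3 adaptors that hold the atypical kinase to CDC42 and PARD3, read 10.49, 10.57 and 10.54 in parental and 9.80, 10.02 and 10.09 in mutant cells. The mutant arrays scatter more (SD 0.15 against 0.04, n = 3 each) but remain below all parental ones. PARD6B fell by 0.56 (SE 0.08, limma adjusted p = 0.00587), which is 1.48-fold. The other adaptors did not pass: PARD6A read 8.17 ± 0.08 and 8.05 ± 0.13 (adjusted p = 0.412) and PARD6G 8.45 ± 0.05 in both lines (adjusted p = 0.987). PARD3, the scaffold that recruits the complex to junctions, went from 9.20 ± 0.05 to 9.09 ± 0.00 (adjusted p = 0.177). In the Crumbs complex 0 of 2 measured genes passed, with 0 of 2 at an unadjusted limma p under 0.05. Since 25.9% of all genes passed, a count over 2 genes says little. CRB3, the epithelial Crumbs protein, differed by -0.08 (95% interval -0.22 to 0.06), and PATJ, its multi-PDZ scaffold, read 8.93 in both lines.

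**Figure D3:**
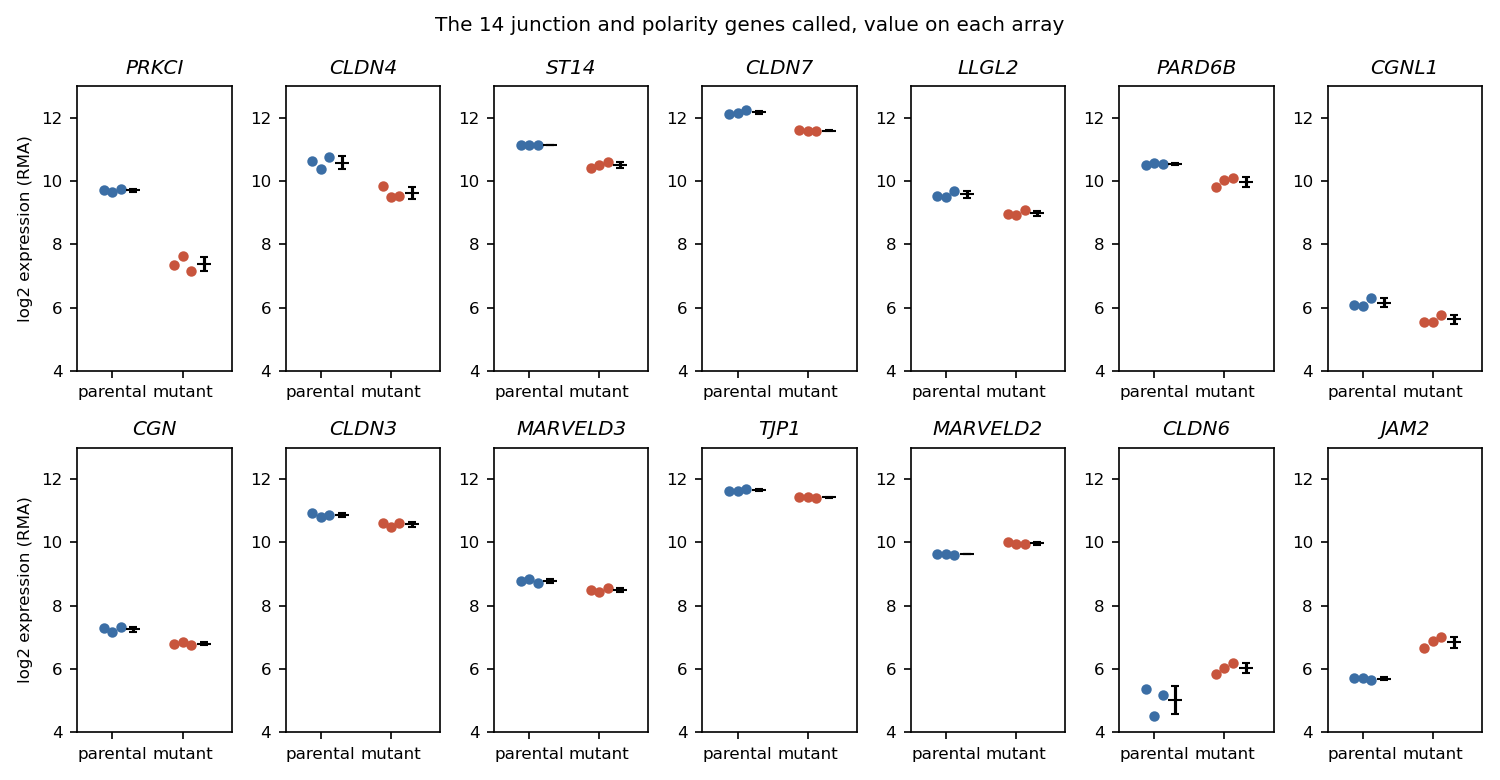
Value of each array (points, log2 expression) for the 14 genes that passed, parental in blue and mutant in red, with the mean and SD of 3 arrays beside them in black, ordered from the lowest to the highest difference. The gap is widest for PRKCI, 9.71 ± 0.04 against 7.38 ± 0.23, and the 3 genes that rose are MARVELD2, CLDN6 and JAM2.

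Of 4 basolateral polarity genes 1 fell, against 11.3% of all genes, and 3 did not pass. LLGL2, the epithelial lethal giant larvae homolog that opposes the atypical kinase, read 9.53, 9.50 and 9.69 in parental and 8.96, 8.92 and 9.07 in mutant cells. All mutant arrays lay below all parental ones. The decrease was 0.59 (SE 0.07, limma adjusted p = 0.00308). SCRIB, the Scribble scaffold, went from 8.72 ± 0.11 to 8.46 ± 0.08 (SD, n = 3 each) and missed the threshold (adjusted p = 0.0622). LLGL1, the paralog of LLGL2, gave -0.09 (adjusted p = 0.268) and DLG1, a scaffold of the same module, 0.13 (adjusted p = 0.15).

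Among epithelial regulators, 1 of 3 fell, against 11.3% of all genes. ST14 encodes matriptase, a membrane serine protease that supports the epithelial barrier. It read 11.15 on each parental array and 10.42, 10.50 and 10.60 on the mutant arrays (probe set 7945204). ST14 fell by 0.64 (SE 0.06, 95% interval -0.79 to -0.49, limma adjusted p = 0.00115), which is 1.56-fold. EPCAM, the epithelial adhesion molecule that binds CLDN7, showed no decrease, with 12.15 ± 0.03 and 12.33 ± 0.06 (SD, n = 3 each, adjusted p = 0.0715) on its brighter probe set and a difference of 0.03 (adjusted p = 0.762) on the other. ESRP2, an epithelial splicing factor, differed by -0.13 (adjusted p = 0.262). These arrays were read per gene, so splicing was not measured.

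Gene order was used to see what surrounds each changed gene, since neighbouring genes can differ together between lines. For each of the 14, up to 20 measured genes on each side with a mean of at least 7 were taken in RefSeq order, with the junction and polarity genes themselves left out. Around LLGL2 on chromosome 17 the neighbours were lower too, with a median of -0.31. By limma 25 of 40 were called lower, where 16% of all genes with a group mean of at least 7 were. In size, 6 of 40 were at least as low as LLGL2 itself. By sign alone, 9 of the 40 were not lower, with a difference of 0 or more. The part of these neighbouring decreases in that of LLGL2 was not tested. Around the other 13 genes the neighbour medians lay near 0, from -0.06 (PARD6B) to 0.10 (CLDN3 and CLDN4).

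PRKCI stood apart in its stretch of chromosome 3, where the 40 neighbours had a median of 0.04 and 0 of them fell as far. By limma 10 of the 40 were called lower and 8 higher, the lowest being ATP11B at -1.07. Of all genes with a group mean of at least 7, 16% were called lower and 21.1% higher. The genes on either side, PHC3 and SKIL, differed by -0.05 and 0.43, and CLDN11, the next member beyond SKIL, by -0.12 (adjusted p = 0.403). For CLDN4, CLDN7, ST14, CLDN6 and JAM2 likewise 0 neighbours moved as far in the same direction. ABHD11, which lies beside the CLDN3 and CLDN4 pair, differed by -0.46.

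**Figure D4:**
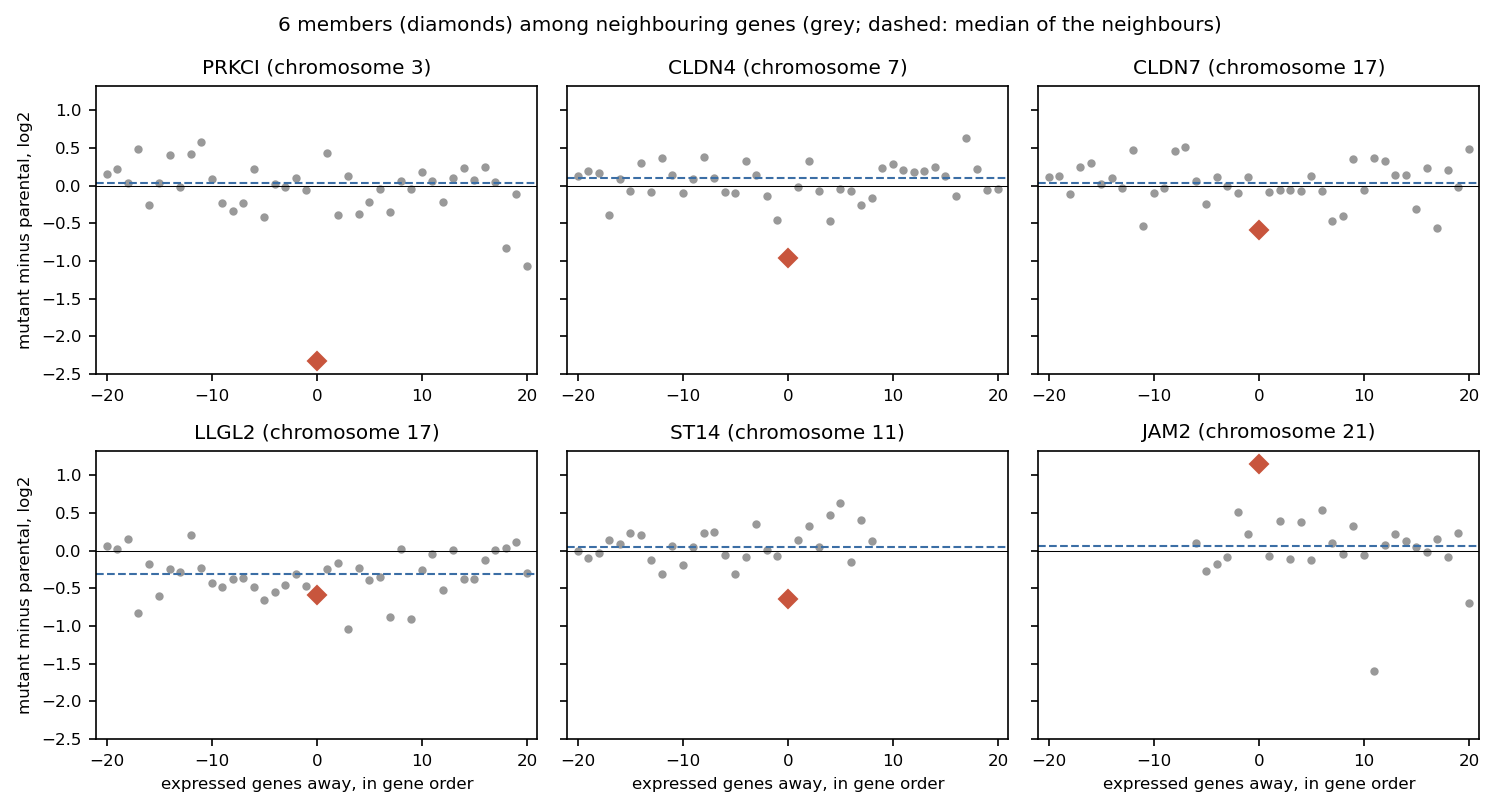
Mutant minus parental difference (log2, vertical axis) of 6 members (diamonds) and of up to 20 measured genes on each side (grey points), by position in gene order, with the median of the neighbours as a dashed line. The neighbours of LLGL2 centre on -0.31, those of PRKCI on 0.04.

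Other genes of junctions and polarity were read from 6 lists. Of 20 measured tight junction partners 4 fell, 1 rose and 15 did not pass (median -0.06). The 25% that passed are close to the 25.9% of all genes, so by the number called the list did not stand out. By direction 20% fell and 5% rose, where 11.3% and 14.6% of all genes did. Its genes are named by the fixed rule. VAPA, an endoplasmic reticulum protein that binds occludin, fell by 0.74 (adjusted p = 0.00133), CLMP, a relative of CXADR, by 0.62 (0.0204), and ILDR2, of the angulin family of tricellular junctions, by 0.55 (limma adjusted p = 0.0151). AMOTL2, an angiomotin, rose by 0.27 (adjusted p = 0.0415). The CLMP call was lost without parental replicates 2 or 3 or mutant replicates 2 or 3, the ILDR2 call without mutant replicates 1 or 2, and the AMOTL2 call without any single array other than mutant replicate 1. Over all alternatives the adjusted p ran to 0.203, 0.21 and 1, and VAPA stayed called in all 15.

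Large decreases were also found among polarity partners. Of 23 measured, 5 fell and 3 rose (median 0.01), or 21.7% and 13% where 11.3% and 14.6% of all genes did. MPP7, a scaffold that joins DLG1 and LIN7 proteins at junctions, read 10.56, 10.63 and 10.69 in parental and 7.92, 8.06 and 8.13 in mutant cells. MPP7 fell by 2.59 (SE 0.07, limma adjusted p = 1.74e-05), or 6.02-fold, with the lines far apart. TIAM1, a RAC1 activator that binds PARD3, fell by 1.60, from 10.13 ± 0.06 to 8.53 ± 0.03 (SD, n = 3 each, adjusted p = 3.39e-05). LIN7A, a scaffold partner of PALS1 and the MPP proteins, fell by 0.93 (adjusted p = 0.00201) at a dim level. The synaptic scaffold DLG4 rose by 0.52 (adjusted p = 0.00122). The kinases MARK1 and MARK2, which are homologs of PAR-1, rose by 0.54 (adjusted p = 0.00281) and 0.28 (0.0151), the MARK2 call being lost without parental replicates 1 or 2 or mutant replicate 2 (adjusted p up to 1 over all alternatives). PALS1, CDC42 and RAC1, which work with the PAR and Crumbs complexes, differed by 0.01, 0.01 and 0.06.

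Of 7 measured partners of matriptase and EPCAM, 2 fell and 1 rose (median -0.16), 42.9% in all against 25.9% of all genes. By direction 28.6% fell and 14.3% rose, where 11.3% and 14.6% of all genes did. Of the 6 with a group mean of at least 7, 33.3% fell and 16.7% rose, against 16% and 21.1% of all genes at that level. PRSS8, or prostasin, a protease that acts with matriptase, fell by 0.47 (adjusted p = 0.00621) and the adhesion receptor gene CD44 by 0.50 (limma adjusted p = 0.00105). PLAU, the urokinase gene, read 9.37, 9.35 and 9.43 against 10.47, 10.43 and 10.54 and rose by 1.10 (adjusted p = 0.000124). The inhibitors of matriptase, SPINT1 and SPINT2, differed by -0.16 (adjusted p = 0.0797) and -0.17 (0.0793).

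Of 10 measured genes of apical trafficking 4 fell and 1 rose (median -0.10), or 50% in all against 25.9% of all genes. All 10 had a group mean of at least 7. By direction 40% fell and 10% rose, against 16% and 21.1% of all genes at that level. The strongest decrease was of AP1M2, which in fact serves sorting to the basolateral side as the epithelial clathrin adaptor subunit: it read 9.61, 9.51 and 9.65 against 7.99, 7.87 and 7.77 and fell by 1.72 (limma adjusted p = 8.07e-05). RAB25, an epithelial GTPase of apical recycling, fell by 0.79 (adjusted p = 0.000577) and the apical scaffold NHERF1 by 0.40 (0.003). The recycling motor MYO5B rose by 0.22 (adjusted p = 0.0371), a call lost without any single array (adjusted p up to 1 over all alternatives). Of 8 measured relatives of claudins 1 fell (12.5%, against 11.3% of all genes; median -0.03), which was EMP1, an epithelial membrane protein, by 1.01 (adjusted p = 0.000548). PERP and CLDND1 differed by -0.07 and -0.16 and did not pass.

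Transcription factors known to act on junction genes changed in both directions, with 7 of 16 measured lower (43.8%, against 11.3% of all genes) and 5 higher (31.2%, against 14.6%) and a median of -0.08. Activators of epithelial genes were among the lowest, EHF at -5.61, GRHL2 at -2.65 and ELF3 at -0.84 (limma adjusted p = 0.000988 or less for each). Higher were SNAI2, a repressor of junction genes (2.15, adjusted p = 5.31e-05), KLF4, a factor of differentiated gut epithelium (0.73, adjusted p = 0.00183), and OVOL2, a repressor of mesenchymal genes (0.55, adjusted p = 0.00837). Relatives of these factors were called in either direction: KLF5 at 0.23 (limma adjusted p = 0.0476), OVOL1 at -0.29 (0.0113) and GRHL1 at -0.26 (0.0264). The repressors of epithelial genes did not move together: ZEB1 also rose (0.55, adjusted p = 0.00543), SNAI1 fell by 0.36 (0.00922) and TWIST1 by 0.56 (0.00249), and ZEB2 differed by 0.11 (0.26).

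**Figure D5:**
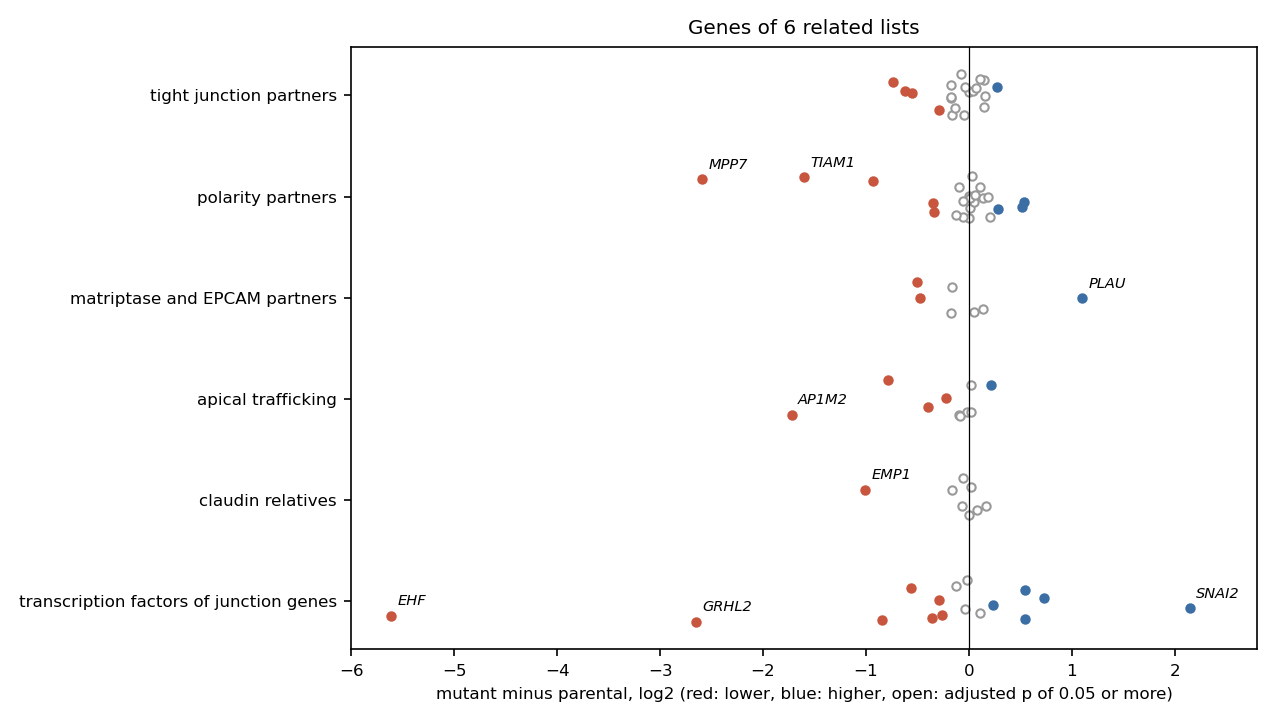
Mutant minus parental difference (log2, horizontal axis) of each measured gene of 6 related lists, with 1 point per gene, red where it fell, blue where it rose and open where it did not pass; points are spread vertically for legibility. EHF (-5.61) and GRHL2 (-2.65) lie lowest and SNAI2 (2.15) highest, all in the list of transcription factors. MPP7 (-2.59), TIAM1 (-1.60) and AP1M2 (-1.72) stand apart below 0 in the polarity and trafficking lists. PLAU (1.10) stands above 0 in the list of matriptase and EPCAM partners.

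Of 6 markers of gut epithelium 4 fell, against 11.3% of all genes, with a mean over the list of 10.48 to 10.52 on parental and 9.91 to 10.00 on mutant arrays. Those that fell were KRT8, KRT18, KRT19 and CDH1, while CDX2 read 8.52 and 8.48. VIL1, a marker of the brush border, read 5.76 in both lines, under the array medians. In bulk samples fewer cells of a type and less RNA per cell cannot be told apart, and the part of these decreases in the junction genes was not tested. Markers of fibroblasts (6 measured), endothelium (6) and leukocytes (5) had 0 lower and 0 higher by limma, where 11.3% and 14.6% of all genes were. Their list means ranged from 5.15 to 5.58 on parental and from 5.22 to 5.48 on mutant arrays, and PTPRC, the pan-leukocyte marker, read 3.72 and 3.73. COL1A1, with 8.30 and 8.13, was the only one of these 17 markers at a group mean of 7 or more. Differences of dim probe sets are compressed, so the counts of 0 say little about the others.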

How the data were processed

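RNA from 6 samples was hybridised to Affymetrix Gene ST arrays. The authors deposited log2 values, 1 per probe set and array, made with the tools RMA and Partek, as named in the submitters' processing notes. Neither versions nor a genome build are stated in the labels. RMA corrects background, quantile-normalizes the arrays and summarises probes, which hides differences in total RNA per cell and compresses dim signals. No further normalization was applied.

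The platform annotation gives 19460 of 33297 probe sets 1 gene symbol and 1754 several, and leaves 12083 without a name. Differences were fitted over all probe sets by limma 3.58.1 (functions lmFit, eBayes; two-sided and without covariates) in R 4.3.3, with Benjamini-Hochberg adjustment over all of them, and 6166 had an adjusted p under 0.05. Python 3.11.15 did the rest. Tested on simulated data for this comparison over 33297 probe sets, the fit recovered 73.1% of 1.5-fold, 91% of 2-fold and 100% of 4-fold changes, with 11 false calls. The simulation changed only 67, 67 and 66 probe sets at these folds, far fewer than the 6166 called in the data. Its rates therefore need not hold for the real comparison.

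Members and lists were chosen with earlier results of these data known. All members are accounted for, and up to 3 called genes per direction are named from each list. Genes around a member, PALS1, CDC42, RAC1, PERP, CLDND1, ZEB1, ZEB2, SNAI1, TWIST1, KLF5, OVOL1, GRHL1, SPINT1 and SPINT2 are given outside that rule, chosen after their values were seen. Gene order and promoters come from RefSeq (GRCh38.p14); 19429 single-symbol probe sets matched by gene ID. Protein sequences were not used here. Whether the arrays of a line stem from separate cultures is not said in the labels; the p-values then cover the spread among these arrays, which may be technical alone. Alternatives covered scaling, dim-signal filters, the variance model, array weights, a replicate block, a minimum fold, the probe sets of a gene and each array left out.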

Additional observations from a re-analysis of the deposited data

How the results depend on the processing

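Under the 15 alternatives 0 of the 14 genes called among claudins, junction and polarity genes reversed, and 6 stayed called in every alternative that tested them (CLDN4, CLDN7, JAM2, PRKCI, LLGL2 and ST14). Requiring a fold of 1.2 in the test, which is stricter by construction, lowered the probe sets changed to 1743 and the genes changed to 1442, with 5 members lower, 1 higher and 0 claudins higher. An intensity trend gave 5 members higher, adding DLG1 and EPCAM, and also called TJP3 and SCRIB lower. Both dim-signal filters gained TJP3, SCRIB and EPCAM as well, and the filter at 7 also DLG1. Array weights and leaving out parental replicate 3 gained TJP3 and SCRIB. Subtracting array medians gained TJP3, and a repeated quantile normalization EPCAM. Keeping only probe sets with 7 or more on at least 3 arrays left 0 claudins higher, since CLDN6 is removed. The same filter removes JAM2 and CGNL1. With 1 array left out at a time there were 4037 to 4644 probe sets, 7 to 11 members lower, 2 to 3 members higher, 2 to 3 claudins lower and 0 to 1 claudins higher. The labels share replicate numbers, but arrays with the same number deviated together at correlations of only -0.013 to 0.043, so the numbers were not taken as pairs. With the replicate block 11 of the 14 genes stayed called, and the claudins higher went to 0. The number of arrays limits the precision, and signals under about 7 are compressed.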
